A study of Mus musculus with 4 samples.

Results

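The genes of the secreted signalling families Wnt, Fgf, Bmp and Gdf were examined for trimethylation of histone H3 at lysine 27 (H3K27me3) in mouse embryonic fibroblasts with and without SmcHD1. The members are the rows outside the X chromosome whose symbol is a Wnt, Fgf, Bmp or Gdf name followed by a number and, for Wnt and Bmp, an optional letter a or b. There were 59 such genes among the 22691 of the table, 19 Wnt, 20 Fgf, 10 Bmp and 10 Gdf genes, and each had a value in both genotypes. The tested cells, called MD1 here, were Smchd1 MD1/MD1 and the comparison cells, called WT, were Smchd1 +/+. Both came from female C57BL6/J fetuses at stage E13.5, and the design text calls the mutant fetuses deficient for SmcHD1. Each genotype had 1 H3K27me3 ChIP library, made with the mouse monoclonal antibody CMA323, and 1 input library. How many fetuses a library came from is not given in the sources used here. With 1 value per gene and genotype there is no replicate error, no test between the genotypes and no p-value.

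H3K27me3 is laid down by Polycomb repressive complex 2 and marks genes kept silent through development, and genes for developmental regulators are among its best known targets. Wnt proteins are lipid-modified ligands of Frizzled receptors, Fgf proteins are ligands of receptor tyrosine kinases, and Bmp and Gdf proteins belong to the TGF-beta superfamily and act through Smad transcription factors. Embryos use each ligand in restricted places and times, and mesenchymal cells are a source of several of them. SmcHD1 is a noncanonical member of the SMC protein family, known for its part in X inactivation and at some autosomal gene clusters.

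Values are log2 H3K27me3 enrichments over the whole gene interval, as deposited by the authors. They have the form of a ratio of whole numbers, but the interval of the denominator is not given in the sources used here, and no correction for gene length was made. Among the ligand genes the level was lower in longer genes, with Spearman's rho of -0.34 in MD1 and -0.35 in WT against log2 length (n = 59 genes that share the libraries), against -0.070 and -0.060 over autosomal genes. The difference D is the MD1 value minus the WT value on this log2 scale, so that a D of 1 is a 2-fold higher and a D of -1 a 2-fold lower enrichment in MD1. In cell populations, fewer cells with the mark and less mark per cell cannot be told apart, and expression was not measured. Over the 19836 autosomal genes with both values, the median level was -0.90 in MD1 and -0.78 in WT, and the median D was -0.27. The slope of MD1 on WT values was 1.25 over these genes, so genes with little mark had negative D as a rule. Each gene was therefore also set against its 500 nearest autosomal genes in mean level from its own quartile of gene length. Their median D was subtracted to give a level-matched D, and the standard deviation (SD) of their D served as a yardstick, which is not a replicate error. Smchd1 itself stood at -3.47 in MD1 and -2.44 in WT, which is a histone mark level and does not check the genotype. A list of 14 fibroblast genes, among them Col1a1, Vim and Prrx1, lay between -5.20 and -0.15 in MD1 and between -3.66 and -0.83 in WT, whereas all 8 genes of an epithelial list, 4 of 5 neural genes and 2 of 4 blood genes lay above 0 in both genotypes.

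The ligand genes carried much more H3K27me3 than the typical autosomal gene in both genotypes, and their levels were close to each other between MD1 and WT cells. The median level over the 59 genes was 1.13 in MD1 (quartiles 0.33 and 1.88) and 1.06 in WT (quartiles 0.29 and 1.75). These medians stood at percentiles 85.8 of the autosomal MD1 values and 85.7 of the autosomal WT values. In each genotype 47 of the 59 genes lay above 0, against 34.2% of autosomal genes in MD1 and 35.6% in WT. The top decile of autosomal genes began at 1.43 in MD1 and 1.33 in WT, and it held 22 ligand genes (37.3%) in MD1 and 25 (42.4%) in WT, against 10% of autosomal genes by definition. Of these, 21 were in it in both genotypes, Wnt11 was in it in MD1 alone, and Fgf6, Fgf23, Bmp2 and Bmp4 in WT alone. Only 4 of the 59, Wnt5a, Fgf7, Bmp1 and Gdf15, lay below the autosomal median in both genotypes.

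**Figure D1:**
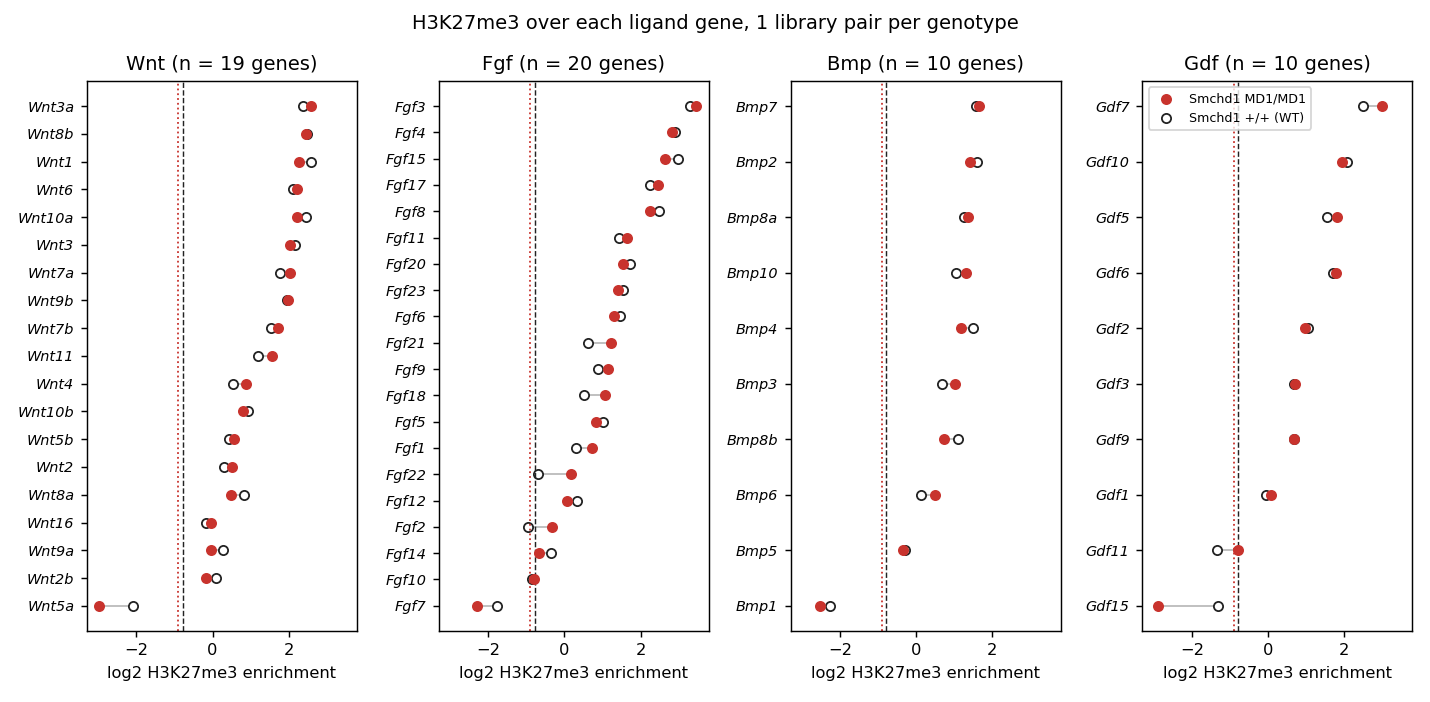
Log2 H3K27me3 enrichment (x axes) of every ligand gene (rows, by family) in MD1 (filled red) and WT (open) cells, 1 value per gene and genotype, with no error bars because there are no replicates. The dotted red line is the autosomal median in MD1 (-0.90) and the dashed black line that in WT (-0.78). Most paired points lie to the right of both lines and close together, and Wnt5a, Fgf7, Bmp1 and Gdf15 lie to the left.

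The Wnt family had the highest median of the 4 families, 1.57 in MD1 and 1.19 in WT. Of its 19 genes, 10 were in the top decile in MD1 and 9 in WT. Wnt3a (chromosome 11, 59061544 to 59104253 in mm9, as all positions of members here), a ligand of the canonical beta-catenin pathway needed for somite formation, stood at 2.60 in MD1 and 2.38 in WT. Wnt8b, expressed in the developing forebrain, stood at 2.45 in MD1 and 2.48 in WT. Wnt1 (chromosome 15, 98620288 to 98624261), required for the midbrain, stood at 2.26 in MD1 and 2.58 in WT. These were the 3 Wnt genes with the highest mean level, and their D ran from -0.32 to 0.21.

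Other Wnt genes with high values in both genotypes are known from epithelia, brain and kidney. Wnt6 stood at 2.23 in MD1 and 2.13 in WT, and Wnt10a, which acts in teeth and skin, at 2.22 in MD1 and 2.45 in WT. Wnt3, needed for gastrulation, stood at 2.04 in MD1 and 2.17 in WT, and Wnt9b, an inducer of kidney tubules, at 1.97 in MD1 and 1.95 in WT. Wnt7a, the dorsalizing signal of limb ectoderm, stood at 2.02 in MD1 and 1.78 in WT. Its relative Wnt7b, whose interval overlaps that of AU022754, stood at 1.73 in MD1 and 1.53 in WT. All 6 genes were in the top decile in both genotypes.

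At the low end, Wnt5a (chromosome 14, 29318659 to 29338701), the noncanonical ligand of limb and other embryonic mesenchyme, stood at -2.98 in MD1 and -2.09 in WT, the lowest level of the family in each genotype. Its D of -0.89 was the second largest in size of all 59 genes, but autosomal genes of like level and length differed as much: the level-matched D was -0.040 with an SD of 0.38. Its close relative Wnt5b, whose interval overlaps that of Fbxl14, stood at 0.56 in MD1 and 0.43 in WT. The Wnt5 genes were thus 3.53 log2 units apart in MD1 and 2.51 in WT. Wnt2b stood at -0.17 in MD1 and 0.077 in WT, Wnt16 at -0.040 in MD1 and -0.16 in WT, and Wnt9a at -0.046 in MD1 and 0.28 in WT. The next lowest Wnt value after those of Wnt5a was thus -0.17, of Wnt2b in MD1.

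The Wnt differences ran from -0.89 to 0.38 with a median of 0.021, and 10 of 19 were positive. The highest were those of Wnt11, a noncanonical ligand, at 1.57 in MD1 and 1.19 in WT (D = 0.38), Wnt4, which acts in kidney and female gonad, at 0.88 in MD1 and 0.55 in WT (D = 0.34), and Wnt7a (D = 0.25). The lowest after Wnt5a were those of Wnt8a, at 0.50 in MD1 and 0.83 in WT (D = -0.34), and Wnt9a (D = -0.33). No Wnt gene reached 2-fold in either direction, against 20.4% lower and 1.61% higher of autosomal genes. Of 4766 autosomal genes with a WT level between the quartiles of the ligand genes, only 105 were lower and 50 higher.

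The Fgf family held the ligand gene with the highest level, and the embryonic ligands Fgf3, Fgf4 and Fgf15 were its most enriched genes. Fgf3 (chromosome 7, 152024517 to 152029253), a signal for the inner ear, stood at 3.47 in MD1 and 3.29 in WT, at percentile 99.9 of autosomal genes in both, the highest value of the 59 genes in each genotype. Fgf4, the ligand of the early embryo and limb ridge, stood at 2.82 in MD1 and 2.90 in WT. Its whole-number ratio in lowest terms was the same in both genotypes, 224 to 31. Fgf15, a hormone-like ligand that represses bile acid synthesis, stood at 2.65 in MD1 and 2.99 in WT. These genes lie next to each other on chromosome 7.

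Fgf17 stood at 2.45 in MD1 and 2.26 in WT, and its relative Fgf8, the signal of the isthmus and limb ridge, at 2.25 in MD1 and 2.49 in WT. Fgf18, the third gene of this subfamily and a regulator of cartilage, was lower in both, at 1.06 in MD1 and 0.51 in WT (D = 0.55, level-matched 0.49 with an SD of 0.26). The intracellular relatives, which are not secreted and bind sodium channels, spread from Fgf11 at 1.65 in MD1 and 1.44 in WT, through Fgf12 at 0.073 in MD1 and 0.32 in WT, to Fgf14 at -0.66 in MD1 and -0.36 in WT. Fgf12 and Fgf14 are the longest members, with 595461 and 698837 bases, and the interval of Fgf14 overlaps that of 1700024B18Rik.

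By mean level the 3 least enriched Fgf genes were Fgf7, Fgf10 and Fgf2. Fgf7 (chromosome 2, 125860394 to 125916921, overlapping Fam227b), the keratinocyte growth factor made by mesenchyme, stood at -2.29 in MD1 and -1.77 in WT (D = -0.52). Its level-matched D was 0.072 with an SD of 0.31, and the sign turned. Fgf10, the mesenchymal signal of limb and lung buds, stood at -0.79 in MD1 and -0.85 in WT. Fgf2 (chromosome 3, 37247575 to 37303752), basic fibroblast growth factor, stood at -0.33 in MD1 and -0.97 in WT. Its D of 0.64 became 0.81 relative to genes of like level and length, whose SD was 0.30, and it was the single ligand gene more than 2 such SDs from 0, where 5.09% of autosomal genes were. Adding 1 to the linear ratios before the logarithm brought the D of Fgf2 to 0.25.

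Fgf22 had the highest D of the 59 genes, at 0.16 in MD1 and -0.69 in WT (D = 0.85). Its ratios in lowest terms were 8 to 7 in MD1 and 3 to 5 in WT, so the value may rest on very few reads, and the matched SD was 0.80. Fgf21, a metabolic hormone of the liver, stood at 1.22 in MD1 and 0.63 in WT (D = 0.59), with a matched SD of 0.64 and a WT ratio of 3 to 2. Both genes are short, with 1843 and 1601 bases. Fgf23, the phosphate hormone of bone, stood at 1.40 in MD1 and 1.55 in WT, and Fgf6, expressed in muscle, at 1.31 in MD1 and 1.47 in WT. Over the family the median level was 1.18 in MD1 and 0.94 in WT, the median D was -0.011, and 10 of 20 differences were positive. None reached 2-fold, against 20.4% lower and 1.61% higher of autosomal genes, and 105 lower and 50 higher of the 4766 of like WT level. Over the 9 Fgf genes in the upper 2 length quartiles the median level was 0.073 in MD1 and 0.30 in WT.

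**Figure D2:**
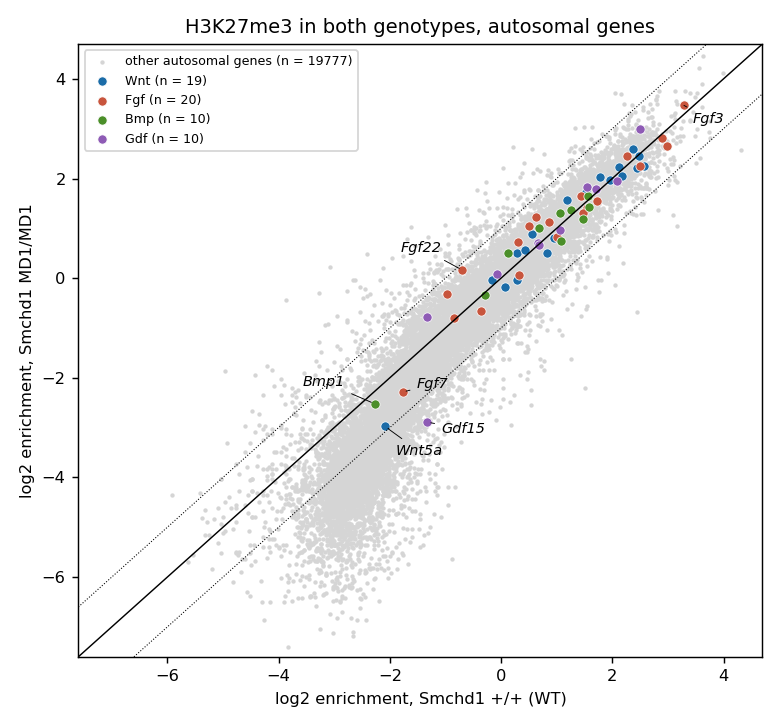
Log2 H3K27me3 enrichment in MD1 (y axis) against WT (x axis) for 19777 other autosomal genes (grey) and the 59 ligand genes, coloured by family; each point is 1 gene. The solid line is equality and the dotted lines are 2-fold; Gdf15, at -2.89 in MD1 and -1.33 in WT, is the ligand gene outside them.

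The Bmp genes differed little between the genotypes, with D between -0.35 and 0.37. Bmp7, a ligand of kidney and eye development, stood at 1.66 in MD1 and 1.56 in WT, and Bmp2, which induces bone, at 1.42 in MD1 and 1.59 in WT. Bmp4, the close relative of Bmp2 that patterns mesoderm, stood at 1.18 in MD1 and 1.48 in WT; its interval overlaps that of Gm15217, and ChIP reads carry no strand. Bmp10, a ligand of the developing heart, stood at 1.31 in MD1 and 1.06 in WT, and Bmp3, which opposes other Bmp ligands, at 1.01 in MD1 and 0.68 in WT (D = 0.33).

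The relatives Bmp8a and Bmp8b differed in sign: Bmp8a stood at 1.37 in MD1 and 1.26 in WT, and Bmp8b at 0.74 in MD1 and 1.09 in WT (D = -0.35). The level-matched D was -0.0085 for Bmp8a and -0.41 for Bmp8b, so the sign of Bmp8a turned. They are close copies, each overlaps an Oxct2 gene, and how reads matching both were counted is not given. Bmp6 stood at 0.50 in MD1 and 0.13 in WT (D = 0.37), and Bmp5, of the same subfamily, at -0.35 in MD1 and -0.30 in WT. Bmp1, which shares the name but encodes the proteinase that trims procollagens, had by far the lowest level, -2.52 in MD1 and -2.27 in WT (D = -0.25). That D turned to 0.50 relative to genes of like level and length, whose SD was 0.27, and to 0.54 after quantile normalization. The family median was 1.09 in MD1 and 1.07 in WT, with a median D of 0.023 and 5 of 10 differences positive.

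The Gdf family held the single ligand gene past 2-fold. Gdf15 (chromosome 8, 73153293 to 73155534), a stress-induced cytokine, stood at -2.89 in MD1 and -1.33 in WT, a D of -1.56 or 2.96-fold lower. In lowest terms its ratios were 4 to 29 in MD1 and 12 to 31 in WT, so the difference may rest on as few as 4 ChIP reads in MD1. The gene spans 2242 bases, and relative to genes of like level and length the D was -1.12, with an SD of 0.88. Past the 2-fold limit were thus 1 lower (1.69%) and 0 higher of the 59 ligand genes, against 20.4% lower and 1.61% higher of the autosomal genes. Genes of like level were seldom past it too. Of 4766 autosomal genes with a WT level between the quartiles of the ligand genes, 105 were lower and 50 higher. With 1 added to the linear ratios before the logarithm the D of Gdf15 was -0.30, and its call was lost, as it was at a limit of 3-fold. By level-matched D the ligand counts were the same, 1 and 0, against 3.41% and 3.16% of autosomal genes. The next differences in size, inside the limit, were those of Wnt5a (-0.89), Fgf22 (0.85) and Fgf2 (0.64).

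The other Gdf genes were mostly well marked. Gdf7 (chromosome 12, 8304724 to 8308760), of the joint and tendon subfamily, stood at 2.998 in MD1 and 2.50 in WT (D = 0.50), with a matched SD of 0.56. Its relatives Gdf5, which shapes joints, and Gdf6 stood at 1.82 in MD1 and 1.55 in WT, and at 1.79 in MD1 and 1.70 in WT. Gdf10 stood at 1.95 in MD1 and 2.08 in WT, and its neighbour Gdf2, a ligand of endothelial cells, at 0.97 in MD1 and 1.06 in WT. Gdf11, which patterns the body axis, was low, at -0.78 in MD1 and -1.34 in WT (D = 0.55, level-matched 0.72 with an SD of 0.51). The oocyte factor Gdf9 and the early embryonic Gdf3 were the most alike pair of the family, at 0.67 and 0.70 in MD1 and at 0.68 and 0.67 in WT, a distance of 0.032 over both genotypes. Gdf1 stood at 0.087 in MD1 and -0.067 in WT, but its interval overlaps those of Cers1 and Upf1. The family median was 0.83 in MD1 and 0.87 in WT, with a median D of 0.059 and 6 of 10 differences positive.

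Over all 59 genes the median D was 0.027 (quartiles -0.21 and 0.23), and 31 (52.5%) were positive, against 31% of autosomal genes. The gap to the autosomal median of -0.27 went with level: the median level-matched D was -0.0085 over the ligand genes, with 29 positive, and -0.0027 over autosomal genes, of which 49.6% were positive. Of the 59, 54 (91.5%) differed by less than 1.5-fold, against 60.6% of autosomal genes, but 87.7% of the 4766 autosomal genes between the quartiles of the ligand genes in WT did so too. The slope of MD1 on WT values was 1.04 over the ligand genes, against 1.25 over autosomal genes, and the 2 genotypes correlated across ligand genes with Pearson's r = 0.96 and Spearman's rho = 0.97 (n = 59 genes that share both library pairs). By level-matched D, 14 ligand genes (23.7%) were more than 1 matched SD from 0, 10 of them higher and 4 lower in MD1, against 28.4% of autosomal genes. The higher ones were Wnt4, Wnt11, Fgf1, Fgf2, Fgf18, Fgf22, Bmp1, Bmp3, Bmp6 and Gdf11, and the lower ones Wnt3, Wnt10a, Bmp8b and Gdf15.

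**Figure D3:**
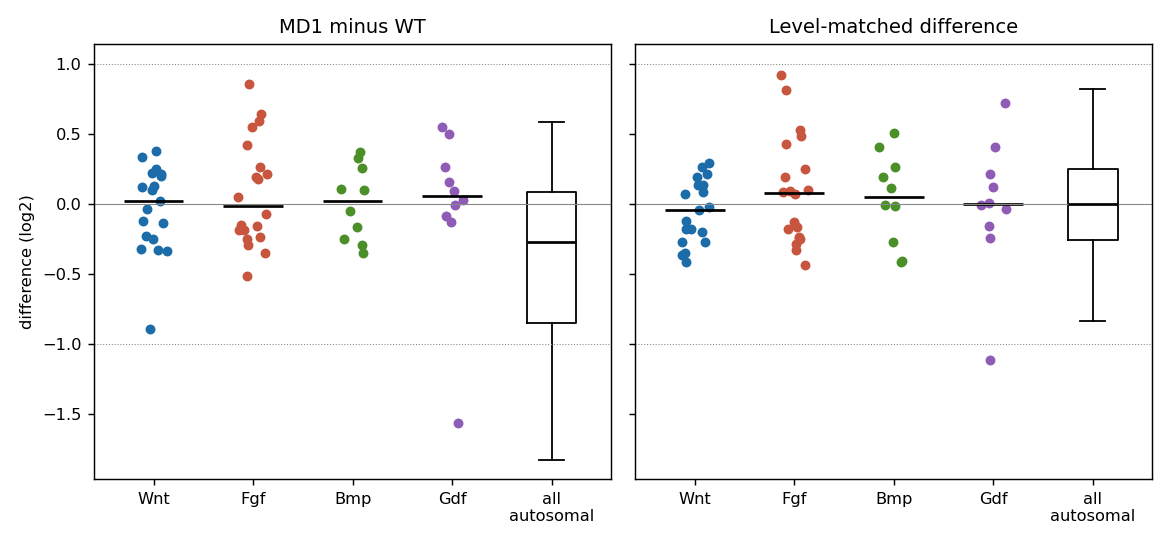
Differences in log2 enrichment, MD1 minus WT (left) and level-matched (right), for each ligand gene by family (points, with the family median as a bar) and for all autosomal genes (box: quartiles and median; whiskers: 5th and 95th percentiles). Dotted lines mark 2-fold; on the left the ligand medians lie between -0.011 and 0.059 and the autosomal median at -0.27, and on the right all medians lie between -0.040 and 0.080.

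Close relatives did not always share a level. In the subfamily of Fgf3, Fgf7, Fgf10 and Fgf22, which signal between mesenchyme and epithelium through the same receptor form, the range was 5.75 log2 units in MD1 and 5.06 in WT, the widest of the 20 subfamilies with more than 1 member. The Wnt8 genes were 1.95 apart in MD1 and 1.65 in WT, and the Wnt9 genes 2.02 in MD1 and 1.67 in WT. By contrast the Wnt7 genes were 0.30 apart in MD1 and 0.25 in WT, and Bmp2 and Bmp4 0.24 in MD1 and 0.11 in WT.

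There were 7 groups of ligand genes with at most 100 kb between neighbours, holding 15 genes. Their median level was 2.04 in MD1 and 2.13 in WT, against 0.78 in MD1 and 0.67 in WT for the other 44 ligand genes. The 15 genes were also shorter, with a median of 9395 bases against 20422.5. D was positive in 4 of the 15 and 27 of the 44, against 31% of autosomal genes. Level-matched D was positive in 2 of the 15 (median -0.24) and 27 of the 44 (median 0.11), against 49.6% of autosomal genes. Over the 8 neighbouring pairs the median distance in level was 0.41 in MD1 and 0.36 in WT, against 1.18 in MD1 and 1.22 in WT over all 1711 pairs of ligand genes. The 1711 pairs also take in genes of lower level. The WT quartiles were 1.51 and 2.51 over the 15 genes, and -0.091 and 1.49 over the other 44. Pairs of the 15 genes that are not neighbours were not compared, so what position adds to level was not tested. Wnt6 and Wnt10a, 6.70 kb apart on chromosome 1, differed by 0.0061 in MD1 and 0.33 in WT. Fgf6 and Fgf23, 48.2 kb apart on chromosome 6, differed by 0.087 in MD1 and 0.079 in WT. They were also the most alike pair of the Fgf family over both genotypes, at a distance of 0.12.

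Other neighbours stood far apart. Wnt3a and Wnt9a point away from each other with 16.2 kb between them, and Wnt9a was 2.64 lower in MD1 and 2.10 lower in WT. Wnt1 and Wnt10b, divergent with 11.7 kb between them on chromosome 15, were 1.45 apart in MD1 and 1.63 in WT, with Wnt10b at 0.80 in MD1 and 0.94 in WT. Wnt3 and Wnt9b, likewise divergent, were alike in both genotypes. Each of these 3 patterns of level was seen in MD1 as in WT.

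**Figure D4:**
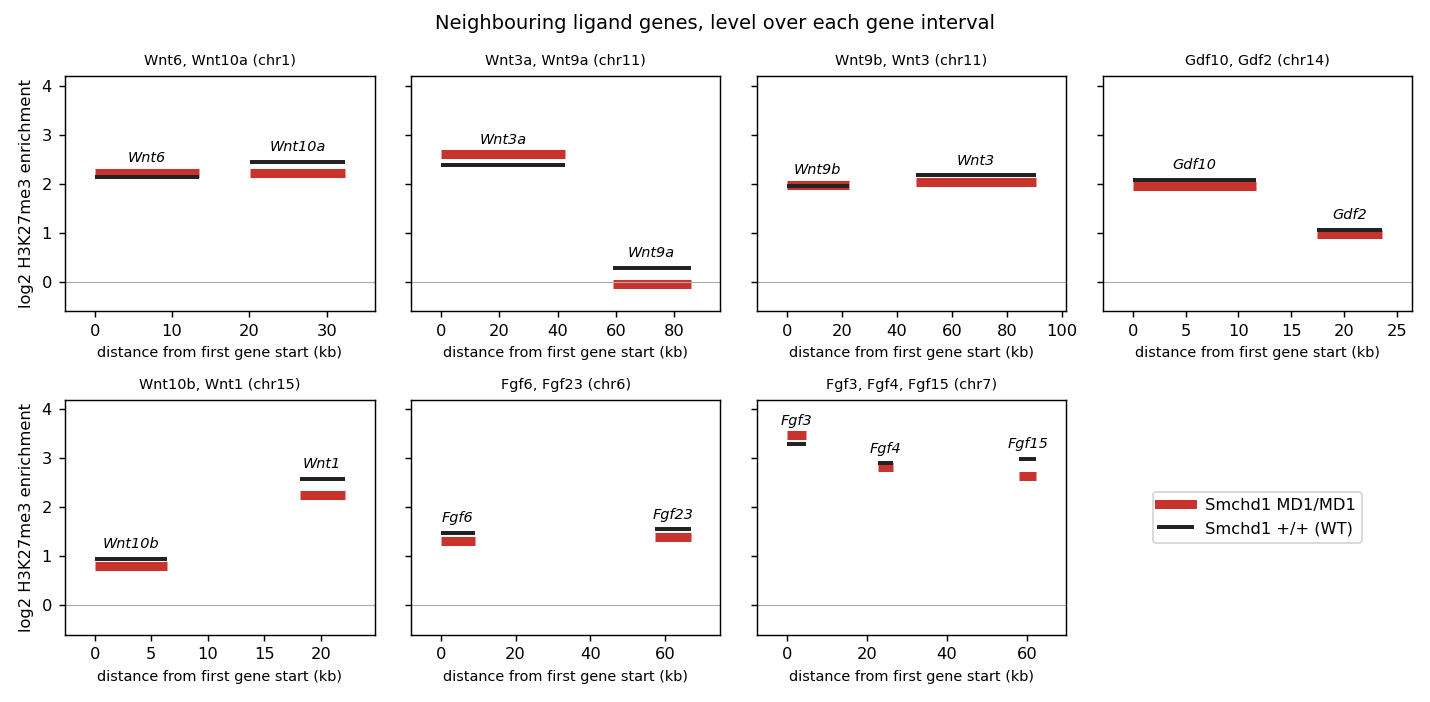
Log2 H3K27me3 enrichment (y axes) over the interval of each ligand gene that has another within 100 kb, against the distance in kb from the start of the first gene of the group (x axes), in MD1 (thick red) and WT (thin black). Each bar is 1 value for the whole gene; Wnt3a stands above Wnt9a and Wnt1 above Wnt10b in both genotypes, whereas Wnt6 and Wnt10a lie at about the same height.

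CpG-rich promoters are known sites of Polycomb recruitment, and the number of CG dinucleotides in the 250 bases before the start was counted in RefSeq promoter windows (build GRCm38.p6). A window was found for 42 of the 59 ligand genes and 14749 of the autosomal genes. The median number was 17.5 in ligand genes and 12 in autosomal genes, and 28 ligand windows (66.7%) held at least 10, against 56.4% of autosomal windows. At least 1 CG was found in every ligand window and in 95.7% of autosomal windows. The start fell within 10 bases of that of the measured interval, as judged from gene length, for 28 of the 42 ligand windows, and not for the other 14. Across ligand genes number and level had a Pearson's r of 0.15 in MD1 and 0.096 in WT (Spearman's rho 0.12 and 0.099, n = 42 genes from the same libraries). Of the 21 ligand genes at or above the median number, 10 were in the top decile of level in MD1 and 9 in WT. Of the 21 below it, 3 were in MD1 and 6 in WT, against 10% of autosomal genes by definition. The genes at or above the median number were also longer, with a median of 22850 bases against 9395. What CpG number adds to level was not tested. Across autosomal genes the relation of number and level was inverse, with r = -0.38 in MD1 and -0.36 in WT (rho -0.42 and -0.40).

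Windows of 4 ligand genes, whose starts lie within 10 bases of those measured, were chosen for genes of like number and unlike level: the most and least marked secreted Fgf ligands, and the divergent neighbours Wnt3a and Wnt9a. They are printed 5′ to 3′ on the strand of the gene from RefSeq, with each CG in capitals, and their positions are in GRCm38.p6, unlike the mm9 positions above. Capitals are letters in this window, not a site of any factor.
Fgf3, chr7:144838362-144838611, plus strand: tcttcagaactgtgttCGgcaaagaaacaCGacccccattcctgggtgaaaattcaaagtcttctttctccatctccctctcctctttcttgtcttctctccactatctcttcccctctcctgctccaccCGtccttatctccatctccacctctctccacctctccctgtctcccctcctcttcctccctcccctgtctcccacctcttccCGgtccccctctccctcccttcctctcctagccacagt
Fgf7, chr2:126034408-126034657, plus strand: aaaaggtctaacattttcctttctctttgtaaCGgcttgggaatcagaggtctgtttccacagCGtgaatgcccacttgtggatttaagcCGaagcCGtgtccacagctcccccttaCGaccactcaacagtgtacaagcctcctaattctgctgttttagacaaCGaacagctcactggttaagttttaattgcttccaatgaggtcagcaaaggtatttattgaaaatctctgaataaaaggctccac
Wnt3a, chr11:59290752-59291001, minus strand: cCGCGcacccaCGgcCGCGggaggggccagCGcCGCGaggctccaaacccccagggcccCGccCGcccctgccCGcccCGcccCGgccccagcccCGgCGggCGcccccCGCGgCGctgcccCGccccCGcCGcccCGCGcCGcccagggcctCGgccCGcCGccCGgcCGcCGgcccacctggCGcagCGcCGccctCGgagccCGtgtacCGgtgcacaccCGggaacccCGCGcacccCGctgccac
Wnt9a, chr11:59306680-59306929, plus strand: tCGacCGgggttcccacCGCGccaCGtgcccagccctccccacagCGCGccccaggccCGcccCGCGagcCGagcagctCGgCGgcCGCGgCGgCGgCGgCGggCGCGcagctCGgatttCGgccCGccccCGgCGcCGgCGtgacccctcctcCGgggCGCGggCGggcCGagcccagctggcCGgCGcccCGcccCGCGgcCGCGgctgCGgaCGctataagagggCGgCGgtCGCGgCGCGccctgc

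The Fgf3 window holds 4 CGs and that of Fgf7 6, while the genes stood at 3.47 and -2.29 in MD1 and at 3.29 and -1.77 in WT. The windows of Wnt3a and Wnt9a hold 41 and 48, and that of Wnt9a is the highest number of any ligand window, while the genes stood at 2.60 and -0.046 in MD1 and at 2.38 and 0.28 in WT. The values cover whole genes, so the mark at these windows alone is not known. Wnt8b, with 5 CGs, stood at 2.45 in MD1 and 2.48 in WT.

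**Figure D5:**
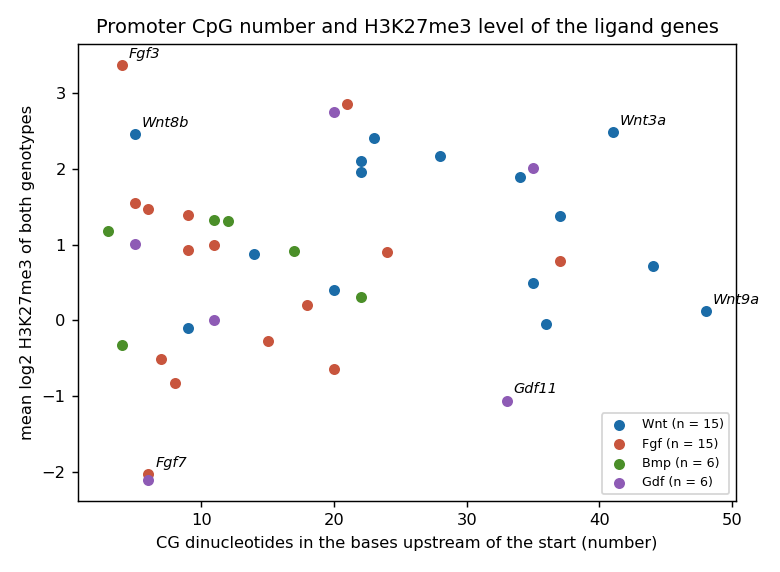
Mean log2 H3K27me3 enrichment of both genotypes (y axis) against the number of CG dinucleotides in the 250 bases before the start (x axis) for the 42 ligand genes with a RefSeq window, coloured by family; each point is 1 gene. Genes with few CGs include both Fgf3 and Fgf7, and genes with many include both Wnt3a and Wnt9a.

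Pooled by role, the receptors, antagonists and target genes of the same pathways had lower medians than the ligands, but the lists behind each role differed. Over 35 receptor genes the median was -0.98 in both MD1 and WT, over 23 secreted antagonist genes 0.15 in MD1 and 0.072 in WT, and over 32 target and feedback genes -1.48 in MD1 and -1.59 in WT. The Wnt target list alone had medians of 0.86 in both MD1 and WT. In each, 9 of its 12 genes lay above 0, against 34.2% of autosomal genes in MD1 and 35.6% in WT. The Fgf receptor list had medians of 0.78 in MD1 and 0.83 in WT, which are the values of the co-receptor gene Kl. Klb, also a co-receptor gene, Fgfr3 and Fgfr4 lay above 0 in both genotypes. Fgfr1 (-3.48 in MD1 and -2.75 in WT), Fgfr2 (-1.50 and -1.15) and Fgfrl1 (-1.85 and -0.98) lay below 0. The Fgf targets had medians of -2.14 in MD1 and -1.96 in WT, and the Bmp targets -2.54 in MD1 and -2.11 in WT. In MD1 the top decile held 5 of 35 receptor (14.3%), 5 of 23 antagonist (21.7%) and 3 of 32 target genes (9.38%). In WT it held 4 (11.4%), 4 (17.4%) and 5 (15.6%), against 10% of autosomal genes by definition. Past 2-fold lower were 3 of 35 receptor genes (8.57%), 0 of 23 antagonist genes and 8 of 32 target genes (25%), against 20.4% of autosomal genes, and past 2-fold higher 1, 0 and 2, against 1.61%. Of 18 Wnt receptor genes, 2 were at least 2-fold lower, Fzd8 at -2.39 in MD1 and -0.67 in WT and Ryk at -3.85 in MD1 and -2.29 in WT, and 1 higher, Fzd1 at -0.11 in MD1 and -1.19 in WT. Relative to genes of like level and length the D was -1.53 for Fzd8, -0.44 for Ryk and 1.14 for Fzd1, with SDs of 0.95, 0.27 and 0.81. By level-matched D, 1 of the 18 was at least 2-fold lower and 2 higher (Fzd1 and Fzd2), against 3.41% and 3.16% of autosomal genes. In lowest terms the ratios of Fzd8 were 8 to 41 in MD1 and 11 to 18 in WT. Those of Fzd1 were 18 to 19 in MD1 and 26 to 61 in WT, so both may rest on few reads. No gene of the 13 Wnt antagonists, 7 Fgf receptors or 11 Bmp antagonists reached 2-fold; their largest differences were at Dkk1 (0.44), Fgfrl1 (-0.87) and Cer1 (0.82).

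Of 12 Wnt target genes, 2 were at least 2-fold lower, against 20.4% of autosomal genes, and 0 higher, against 1.61%. Ccnd1 (D = -1.72) and Myc (D = -1.09) had little mark in both genotypes, and relative to like genes they differed by -0.87 and 0.26. Of 11 Fgf target and feedback genes, none lay above 0 in either genotype, against 34.2% of autosomal genes in MD1 and 35.6% in WT. Of the 11, 3 were at least 2-fold lower and 1 higher, against 20.4% and 1.61% of autosomal genes. The lower ones were Spry2, a feedback inhibitor, at -5.34 in MD1 and -2.78 in WT, Dusp6 at -4.10 in MD1 and -2.87 in WT, and Spred2 at -3.48 in MD1 and -2.38 in WT. Relative to genes of like level and length the D was -0.98 for Spry2, 0.070 for Dusp6 and -0.072 for Spred2, with SDs of 1.21, 1.18 and 0.26, so none of these 3 stayed past 2-fold. The higher one was Spry1, at -1.14 in MD1 and -2.47 in WT, with a level-matched D of 1.63 and an SD of 0.95. In lowest terms the ratios of Spry2 were 2 to 79 in MD1 and 10 to 71 in WT, and those of Spry1 37 to 80 in MD1 and 7 to 40 in WT, so both may rest on few reads. Of 10 Bmp receptor and co-receptor genes, 1 was past 2-fold lower, against 20.4% of autosomal genes. It was Rgmb (-4.45 in MD1 and -2.89 in WT, D = -1.55), with a level-matched D of -0.047.

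The Bmp target genes Msx1 and Msx2, homeobox genes of limb and tooth, were lower in MD1 than in WT while still marked. Msx1 stood at 0.93 in MD1 and 2.06 in WT (D = -1.13), and Msx2 at 0.45 in MD1 and 1.57 in WT (D = -1.12). Relative to genes of like level and length they differed by -1.25 and -1.19, with SDs of 0.51 and 0.61. The Msx1 interval overlaps that of its antisense gene Msx1os, and reads of the 2 cannot be told apart. Smad7, an inhibitory Smad, was at -5.52 in MD1 and -3.24 in WT. Its level-matched D was -0.71 with an SD of 0.49, so that it did not stay past 2-fold. By D, Msx1, Msx2 and Smad7 were at least 2-fold lower, 3 of the 9 Bmp target genes, against 20.4% of autosomal genes. Id3, at -3.12 in MD1 and -4.13 in WT, was at least 2-fold higher (D = 1.01), against 1.61% of autosomal genes. Its level-matched D was 2.37 with an SD of 1.17, and its ratios in lowest terms were 2 to 17 in MD1 and 1 to 18 in WT, so it may rest on very few reads. The 16 other TGF-beta family ligand genes had medians of 0.59 in MD1 and 0.99 in WT, and 1 was at least 2-fold lower, against 20.4% of autosomal genes. It was Inhba (-4.91 in MD1 and -3.01 in WT), followed by Tgfb3 (D = -0.99) and Lefty1 (D = -0.83). Relative to genes of like level and length Inhba differed by -0.29, with an SD of 0.74, so that it did not stay past 2-fold.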

How the data were processed

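H3K27me3 was measured by ChIP-seq in 4 libraries, a ChIP and an input of each genotype. The deposited table has 1 row per gene and, per the file headers, 1 column per genotype. Its values are on a log2 scale, judged from the values, since the sources used here do not give the authors' denominator, aligner, counting or filters. Per the submitters' processing notes the genome build was mm9. Nearly every deposited log2 value (99.95% in MD1 and 99.98% in WT) equals a genotype's constant plus the log2 of one whole number over another, each up to 20000, at a relative tolerance of 1e-12. Only the lowest terms of these ratios can be had, so depth is unknown and no counting interval is given.

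The members and lists were chosen with earlier results of these data known. Differences were called at 2-fold. Named ligand genes were those past 2-fold, those with extreme level or D in each family (3 each way in Wnt and Fgf, 2 in Bmp and Gdf), neighbours, most alike pairs, genes that are not secreted ligands, and up to 3 genes per pathway list by size of D; others were named after their values were seen. Subfamilies were assigned from general knowledge after the values were seen. Promoter windows were matched to symbols in RefSeq tables, taking the start whose distance to the gene end is nearest to the mm9 gene length. The level-matched D was tried on simulated data with planted differences larger than any D of the ligand genes, so smaller differences were not tried. Scatter in the simulation was set by length quartile alone and did not vary with level. Python 3.11.15, numpy 2.4.6 and pandas 2.3.3 were used.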

Additional observations from a re-analysis of the deposited data

How the results depend on the processing

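No paired analysis was possible because each genotype had 1 value per gene, and for the same reason no replicate could be left out. Other settings gave 188 values of counts, median differences and median levels. Of these, 174 kept their count within 1.5 times or stayed within the 95% order-statistic interval of their median over genes. Some of the 174 could not have moved, because the setting removed no gene of the family. Leaving out Bmp1, Fgf11, Fgf12 and Fgf14 kept all 19 Wnt and all 10 Gdf genes. Leaving out weakly marked genes kept all 20 Fgf, 10 Bmp and 10 Gdf genes. Such values count as unmoved without having been tested. At a limit of 1.5-fold, 2 ligand genes were lower (1 of them the Wnt gene Wnt5a) and 3 higher (all 3 in the Fgf family), against 34.4% and 5.05% of autosomal genes. At 3-fold, and with a pseudocount of 1, 0 were lower, against 7.61% and 0.156% of autosomal genes, and Gdf15 was no longer called, with a D of -0.30 at that pseudocount. Centred on the autosomal median the median D was 0.30 over all ligand genes and 0.29 over Wnt genes, and 1 gene was at least 2-fold higher, Fgf22 of the Fgf family (D = 1.13), against 3.22% of autosomal genes. Among longer genes (the upper 2 length quartiles) the median level over all ligand genes was 0.78 in MD1 and 0.53 in WT. Over the Fgf genes among them it was 0.073 in MD1 and 0.30 in WT, and over the Bmp genes 0.74 and 0.68. Over the Wnt genes among them it was 1.65 in MD1 and 1.36 in WT, against 1.57 and 1.19 over all Wnt genes. Of 50 named ligand genes, 10 had a D whose sign changed under level matching or quantile normalization, so the sign of their D is not settled. Centring, which moves every D by the same amount, turned the sign of a further 13. Leaving out genes with denominators under 20, an alternative chosen after the data were seen, moved no ligand count or median by these measures. It kept 47 of the 59 ligand genes, 4 of the 10 Gdf genes and all 10 Bmp genes. Gdf15, with ratios of 4 to 29 in MD1 and 12 to 31 in WT, was kept for its denominators. Numerators were not filtered, so the low MD1 numerator of Gdf15 was not tested. Scatter was larger in short genes: the SD of level-matched D over autosomal genes was 0.86 in the shortest length quartile, with 19 ligand genes, and 0.28 in the longest, with 13.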

Other observations

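The families have 3 X-linked genes, which are not among the 59 and were set beside them after their values were seen. Bmp15, an oocyte ligand, stood at 1.67 in MD1 and 0.60 in WT (D = 1.08), Fgf13, an intracellular relative of Fgf12, at 1.82 in MD1 and 0.81 in WT (D = 1.01), and Fgf16 at 1.99 in MD1 and 1.64 in WT (D = 0.35). The median over 770 X genes was 1.40 in MD1 and 0.84 in WT, with a median D of 0.55. The highest D of the 59 genes outside the X was 0.85, at Fgf22.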
